A study of Danio rerio with 4 samples.

Results

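The transcription factor genes tfap2a, tfap2c, foxi1, gata2a, gata3, tp63 and dlx3b belong to the early program of the non-neural ectoderm, the part of the ectoderm that forms epidermis, sensory placodes and, at its border, neural crest. They were taken by gene name from the deposited table, which lists 25769 genes, and all 7 were found there. The table holds bulk SLAM-Seq of whole zebrafish embryos of the AB/TL genotype at 4.8 hpf (30% epiboly) and at 1 hpf (4-cell stage), in pools of 25 embryos. In SLAM-Seq, RNA made after the injection of 4-thiouridine (4sU) is labeled, because alkylation of 4sU with iodoacetamide turns a T of the RNA into a C of the read. All embryos of both stages received 4sU at the 1-cell stage and all RNA was treated with iodoacetamide, and no library without 4sU was analysed here. The sample labels call the later stage 6 hpf and give 20 mM 4sU, where the methods of the study give 4.8 hpf and 50 mM.

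Each stage had 1 polyA+ and 1 ribo-depleted library. The polyA+ RNA was sequenced on a NextSeq (single-end) and the ribo-depleted RNA on a NovaSeq (paired-end), so that library type and platform cannot be told apart. There was no replicate within a stage and type. At 4.8 hpf the libraries held 10212400 (polyA+) and 17814709 (ribo-depleted) estimated reads, against 9058807 and 22521675 at 1 hpf. Over all genes, 16.4% and 18.7% of the reads were newly-transcribed (zygotic) at 4.8 hpf, against 0.188% and 1.40% at 1 hpf, in the same order of library types. Whole embryos also hold other tissues. Levels are given as RPM, the reads of a gene scaled to a library total of 1000000 reads. At 4.8 hpf the summed level of 10 enveloping layer markers was 2818 (polyA+) and 1883 (ribo-depleted) RPM. It was 660 and 501 for 6 yolk syncytial layer markers and 1543 and 953 for 7 mesendoderm markers. For 9 oocyte or maternal markers it was 1484 and 1435. At 1 hpf the same sums were 390 and 32.9 for the enveloping layer, and 1.05 and 1.47 for the yolk syncytial layer. They were 1.40 and 3.38 for the mesendoderm, and 6611 and 5361 for the oocyte or maternal markers. Of the enveloping layer markers, 9 were called higher at 4.8 hpf and 1 lower. The marker called lower held most of the enveloping layer sum in both 1 hpf libraries, where krt92 and cldnf had 0 reads. Blood markers, which should be absent at these stages, summed to at most 0.196 RPM in any library, and muscle markers to at most 3.21 RPM. In bulk RNA, more cells of a type cannot be told apart from more RNA per cell.

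In the vertebrate blastula and gastrula, BMP signaling on the ventral side directs ectoderm toward epidermis, while cells shielded from BMP by dorsal antagonists form the neural plate. AP-2, forkhead, GATA, Dlx and p63 factors are induced or maintained in the BMP-exposed ectoderm and in turn specify epidermis, placodes and neural crest. In zebrafish, tfap2a and tfap2c act redundantly in neural crest and non-neural ectoderm, foxi1 is required for otic and epibranchial placodes, and dlx3b acts with dlx4b in the otic and olfactory placodes. The GATA factors gata2a and gata3 mark ventral ectoderm before they serve blood, vessels and sensory organs, and tp63 is a master regulator of basal keratinocytes.

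Of the 7 genes, 6 were higher in both 4.8 hpf libraries than in either 1 hpf library, as were 25.4% of the 16332 genes with enough reads for a test, and tp63 was not. All 7 were higher at 4.8 hpf in both library types, as were 35.6% of these genes. The 7 genes together had 3930 reads in the 4.8 hpf polyA+ library (384.8 RPM) and 2081 in the 4.8 hpf ribo-depleted library (116.8 RPM), against 72 reads (7.95 RPM) and 358 reads (15.9 RPM) at 1 hpf. The new-to-total ratio (NTR) is the fraction of a gene's RNA that is newly-transcribed, as estimated by the authors with GRAND-SLAM. Weighted by reads, 75.1% of the reads of the 7 genes were new at 4.8 hpf in the polyA+ library (95% Wilson interval 73.7 to 76.4%). In the ribo-depleted library 74.8% were (72.9 to 76.6%). At 1 hpf these percents were 1.29% (0.216 to 7.30%) and 0.156% (0.0177 to 1.35%). Intervals throughout cover counting error only. They treat reads, or T bases, as independent, and leave out the error of the NTR estimate and variation between embryo pools.

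**Figure D1:**
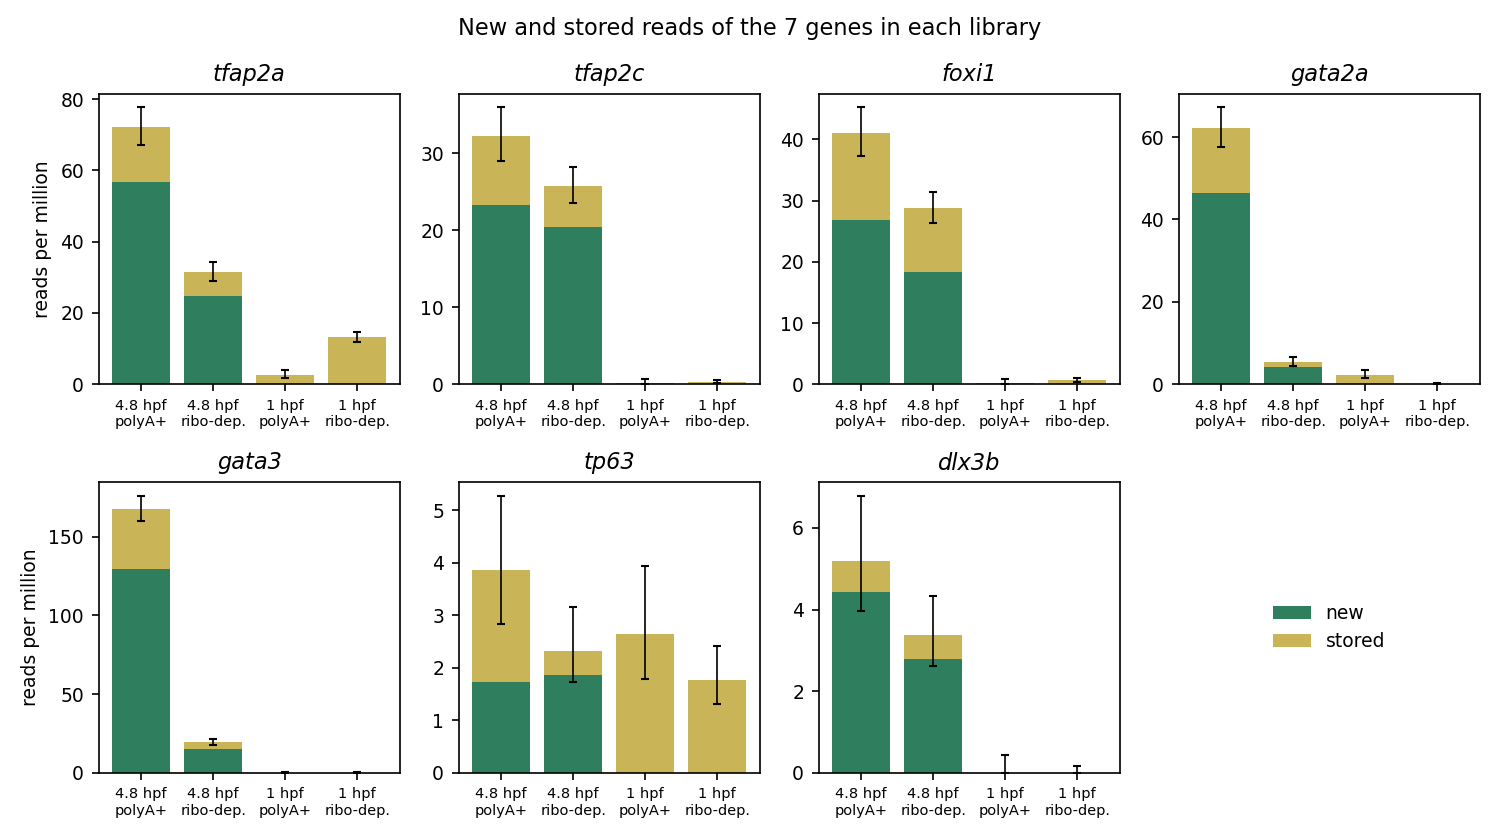
RPM of each of the 7 genes, split into newly-transcribed RNA (reads multiplied by NTR) and stored RNA (the remaining reads), in the 4 libraries, each gene on its own scale. Error bars are 95% Wilson intervals of the total read count. At 4.8 hpf gata3 had the highest level in polyA+ RNA and tfap2a in ribo-depleted RNA, and at 1 hpf tfap2a held 296 of the 358 reads of the ribo-depleted library.

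The change in total reads between the stages was tested over 16332 genes with edgeR's quasi-likelihood test, with library type as a covariate and Benjamini-Hochberg adjustment. Of the 7 genes, 6 were called higher at 4.8 hpf and 0 lower, against 18.3% of all genes tested called higher and 14.5% called lower. The median log2 change was 6.29 over the 7 genes and 0.10 over all genes, with an interquartile range of −0.74 to 0.90. With gata3 and dlx3b, which had 0 reads at 1 hpf, at their bound against 3 reads per library, the median over the 7 genes was 5.28. With library totals in place of TMM factors the median over all genes was −0.06. Only 1 residual degree of freedom was left in the model. It holds the disagreement between polyA+ and ribo-depleted pairs. Whether both libraries of a stage came from the same embryo pool is not stated, so variation among pools cannot be read from it. The prior degrees of freedom were infinite, so dispersions were taken from a trend over all genes. A gene's own disagreement between the pairs did not enter its SE or p-value. The SE was 0.51 for tfap2a, with log2 ratios of 4.77 (polyA+) and 1.27 (ribo-depleted), and 0.53 for tp63, with 0.55 and 0.39.

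The AP-2 gene tfap2a had reads at both stages. It had 738 reads at 4.8 hpf in the polyA+ library, or 72.3 RPM (interval 67.2 to 77.7), and 563 reads in the ribo-depleted library, or 31.6 RPM (29.1 to 34.3). At 1 hpf it had 24 reads in the polyA+ library, or 2.65 RPM (1.78 to 3.94), and 296 reads in the ribo-depleted library, or 13.1 RPM (11.7 to 14.7). Both 4.8 hpf libraries were above both 1 hpf libraries, and the level was 27.3-fold higher at 4.8 hpf in the polyA+ pair but 2.40-fold higher in the ribo-depleted pair. The fitted log2 change was 3.04 ± 0.51 (SE), and edgeR's quasi-likelihood test gave an adjusted p of 4.12e-08 (Benjamini-Hochberg). The call was lost without the library type term, and without any one of the libraries other than the 4.8 hpf ribo-depleted library (adjusted p of edgeR between 0.0594 and 0.15 over these fits).

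At 1 hpf tfap2a had an NTR of 0 in both libraries, and in the ribo-depleted library 6 of 11890 covered T bases had turned to C (0.0505%, interval 0.0231 to 0.110%), against 0.232% over all genes. In the polyA+ library 0 of 467 had. At 4.8 hpf the NTR was 78.5% in polyA+ and 77.95% in ribo-depleted RNA, and the T-to-C share was 6.44% (6.03 to 6.88%) and 5.49% (5.16 to 5.83%). New tfap2a RNA was 56.7 RPM in polyA+ and 24.6 in ribo-depleted RNA at 4.8 hpf, and 0 in both libraries at 1 hpf. Stored tfap2a RNA was 15.6 RPM in polyA+ and 6.97 in ribo-depleted RNA at 4.8 hpf, against 2.65 and 13.1 at 1 hpf. The stored level was thus higher at 4.8 hpf in the polyA+ pair and lower in the ribo-depleted pair, with log2 ratios of 2.55 and −0.92. In edgeR's test of stored reads its log2 change was 1.101 ± 0.52, with an adjusted p of 0.11 (Benjamini-Hochberg), so no change in stored reads was called.

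The other AP-2 gene, tfap2c, was nearly without reads at 1 hpf. At 4.8 hpf it had 32.3 RPM in polyA+ and 25.7 in ribo-depleted RNA, against 0.110 (1 read) and 0.266 (6 reads) at 1 hpf. The groups did not overlap, and edgeR's quasi-likelihood test gave a log2 change of 7.21 ± 0.67 with an adjusted p of 9.87e-25 (Benjamini-Hochberg). The NTR at 4.8 hpf was 72.1% in polyA+ and 79.3% in ribo-depleted RNA, with T-to-C shares of 5.72% (5.17 to 6.32%) and 5.54% (5.20 to 5.90%). Its NTR of 9.29% in the 1 hpf ribo-depleted library rests on 1 conversion among 185 T bases. Per kilobase of gene, tfap2a was 3.94-fold higher than tfap2c at 4.8 hpf in polyA+ RNA and 2.16-fold higher in the ribo-depleted library.

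The forkhead gene foxi1 had 41.1 RPM in the polyA+ library (420 reads) and 28.8 in the ribo-depleted library (513 reads) at 4.8 hpf, against 0.221 (2 reads) and 0.666 (15 reads) at 1 hpf. It was 186-fold and 43.2-fold higher at 4.8 hpf in polyA+ and ribo-depleted pairs, and edgeR's quasi-likelihood test gave a log2 change of 6.29 ± 0.61 and an adjusted p of 4.05e-23 (Benjamini-Hochberg). Its NTR of 65.3% in polyA+ and 63.9% in ribo-depleted RNA was below that of the AP-2 and GATA members in both libraries. The T-to-C share was 6.10% (5.55 to 6.70%) in polyA+ RNA and 4.62% (4.30 to 4.96%) in the ribo-depleted library, and its interval in the ribo-depleted library was below those of tfap2a and tfap2c but overlapped that of gata3 (4.52 to 5.33%). In polyA+ RNA its T-to-C share was above that of tfap2c (5.72%), with overlapping intervals. At 4.8 hpf there was 1.88-fold as much new as stored foxi1 RNA in polyA+ RNA and 1.77-fold in the ribo-depleted library.

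The GATA gene gata3 had the most reads of the 7 genes in the 4.8 hpf polyA+ library and none at 1 hpf. It had 1715 reads in the polyA+ library at 4.8 hpf, or 167.9 RPM (160.2 to 176.1), and 348.5 estimated reads in the ribo-depleted library, or 19.6 RPM (17.6 to 21.7). At 1 hpf it had 0 reads in both libraries, where 3 reads, the upper limit that a count of 0 allows, are 0.331 RPM in polyA+ and 0.133 in ribo-depleted RNA. The level at 4.8 hpf was therefore at least 507-fold higher in the polyA+ pair and at least 147-fold higher in the ribo-depleted pair (bounds against 3 reads per library). The adjusted p of edgeR's quasi-likelihood test was 5.72e-37 (Benjamini-Hochberg). It was 0.0762 or less over the alternatives tried and missed 0.05 when either 1 hpf library was left out. The NTR was 77.15% in polyA+ and 77.24% in ribo-depleted RNA, while the T-to-C share was 6.67% (6.39 to 6.97%) and 4.91% (4.52 to 5.33%), so that nearly equal NTR values went with intervals of the T-to-C share that did not overlap. This gene made up 44.8% of the new reads of the 7 genes in polyA+ and 17.3% in ribo-depleted RNA.

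Its relative gata2a had 62.2 RPM in the polyA+ library (635 reads) and 5.44 in the ribo-depleted library (97 reads) at 4.8 hpf, against 2.32 (21 reads) and 0.0444 (1 read) at 1 hpf. The stages did not overlap, although the gap was narrow, with 5.44 RPM as the lower 4.8 hpf value and 2.32 as the higher 1 hpf value. The log2 change in edgeR's quasi-likelihood test was 5.28 ± 0.59 with an adjusted p of 2.37e-17 (Benjamini-Hochberg). It was 2.30 without the 4.8 hpf polyA+ library and 9.63 without the 1 hpf polyA+ library, and the call was lost in both, without the 1 hpf ribo-depleted library and without the library type term (adjusted p of edgeR at most 0.316). The NTR of gata2a was 74.55% in polyA+ and 76.75% in ribo-depleted RNA, with T-to-C shares of 6.74% (6.24 to 7.28%) and 6.16% (5.34 to 7.09%). Per kilobase, gata3 was 2.97-fold higher than gata2a at 4.8 hpf in polyA+ RNA and 3.95-fold higher in the ribo-depleted library.

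The homeobox gene dlx3b was low and detected only at 4.8 hpf. It had 53 reads in the polyA+ library, or 5.19 RPM (3.97 to 6.79), and 60 in the ribo-depleted library, or 3.37 RPM (2.62 to 4.33), at 4.8 hpf, and 0 reads in both 1 hpf libraries. It was at least 15.7-fold and at least 25.3-fold higher at 4.8 hpf in polyA+ and ribo-depleted pairs, against 3 reads per library, and edgeR's quasi-likelihood test gave an adjusted p of 1.23e-13 (Benjamini-Hochberg). Its NTR of 85.5% in polyA+ and 82.6% in ribo-depleted RNA was the highest of the 7 in each, on few reads. The counting intervals of this NTR, 73.6 to 92.5% and 71.1 to 90.15%, overlapped those of the AP-2 and GATA genes in both libraries. The T-to-C share was 8.67% (6.82 to 10.96%) in polyA+ and 5.77% (4.82 to 6.89%) in the ribo-depleted library.

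The p63 gene tp63 was at a low level at both stages. It had 39.5 estimated reads, or 3.87 RPM (2.84 to 5.28), in polyA+ RNA and 41.5, or 2.33 RPM (1.72 to 3.15), in the ribo-depleted library at 4.8 hpf. At 1 hpf it had 24 reads, or 2.65 RPM (1.78 to 3.94), and 40 reads, or 1.78 RPM (1.30 to 2.42). The stages overlapped, and edgeR's quasi-likelihood test gave a log2 change of 0.63 ± 0.53 with an adjusted p of 0.38 (Benjamini-Hochberg), so no change in total reads was called. The NTR was 0 in both libraries at 1 hpf, and 44.5% in polyA+ and 79.8% in ribo-depleted RNA at 4.8 hpf, with T-to-C shares of 3.44% (2.32 to 5.07%) and 5.59% (4.46 to 6.98%). New tp63 RNA was 1.72 RPM in polyA+ and 1.86 in ribo-depleted RNA at 4.8 hpf, while stored RNA was 2.15 and 0.470 there, against 2.65 and 1.78 at 1 hpf. Stored tp63 RNA was lower at 4.8 hpf in both library types (log2 ratios of −0.30 and −1.92), a difference that edgeR's test did not call (−0.69 ± 0.64, adjusted p 0.448, Benjamini-Hochberg).

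**Figure D2:**
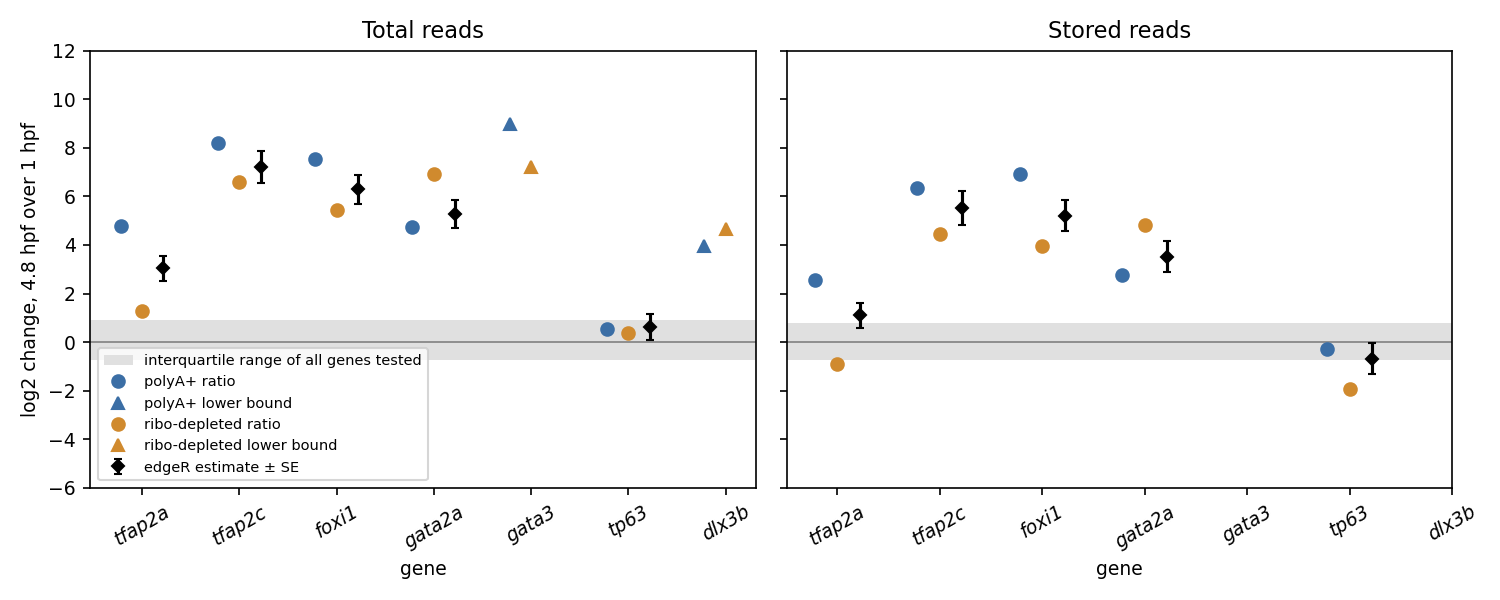
Log2 ratio of RPM, 4.8 hpf over 1 hpf, for the polyA+ pair and the ribo-depleted pair, for total and for stored reads, with the edgeR estimate ± SE (diamonds) and the interquartile range of all genes tested (grey). The total reads of gata3 and dlx3b, at 0 at 1 hpf, are drawn as lower bounds against 3 reads, and their stored reads are not drawn. Ratios of total reads were above 0 for all 7 genes in both library types, between 0.39 and 0.55 for tp63, and stored tfap2a was above 0 in the polyA+ pair and below 0 in the ribo-depleted pair.

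Stored reads, the part of a gene's reads not counted as new, were tested over 15328 genes, and 10.9% were called higher and 13.0% lower at 4.8 hpf. Stored dlx3b RNA had too few reads for the test. Of the other 6 genes, 4 were called higher and 0 lower, and the median log2 change was 4.37 over the 6, with gata3 as fitted or at its bound, and 0.05 over all genes. The 4 were tfap2c (5.52 ± 0.71), foxi1 (5.21 ± 0.62), gata2a (3.52 ± 0.62) and gata3, with adjusted p values of edgeR's quasi-likelihood test between 3.73e-07 and 5.35e-26 (Benjamini-Hochberg). For gata3 the reads counted as stored were 38.4 RPM in polyA+ and 4.45 in ribo-depleted RNA at 4.8 hpf, although no read of the gene was present at 1 hpf. Reads counted as stored need thus not be RNA present at 1 hpf, and a call of higher stored reads is not a call of more such RNA. Stored foxi1 RNA was 14.3 and 10.4 RPM at 4.8 hpf, against 0.118 and 0.666 at 1 hpf. For tfap2c and foxi1 the stored RPM of both 4.8 hpf libraries was above the total RPM of both 1 hpf libraries. For gata3 and dlx3b, without a read at 1 hpf, any stored read at 4.8 hpf gives this result, so it carries no information. Stored gata2a RNA was 15.8 and 1.27 RPM at 4.8 hpf, against a total of 2.32 and 0.0444 RPM at 1 hpf, so that the stages overlapped. The share of all genes whose stored RPM was separated in this way was not computed. Whether the separation in tfap2c and foxi1 is unusual was therefore not tested. In DESeq2 the adjusted p of stored gata3 was 0.0656, and over all settings it was between 5.02e-27 and 0.180. With the 1 hpf polyA+ or the 1 hpf ribo-depleted library left out, edgeR called 0 genes in all, with 3217 and 3578 at an unadjusted p under 0.05. The stored log2 change of gata2a was 0.45 without the 4.8 hpf polyA+ and 7.89 without the 1 hpf polyA+ library.

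For comparison, the NTR was read in genes absent from both 1 hpf libraries that reached 100 reads in each 4.8 hpf library. There were 126 such genes, gata3 among them. Their median NTR was 70.6% in polyA+ RNA (interquartile range 66.6 to 74.4%). It was 79.5% in ribo-depleted RNA (74.1 to 82.7%), and so below 100% in both. For all 8932 genes that reached 100 reads in each 4.8 hpf library, whatever their reads at 1 hpf, the median was 8.02% and 8.44%. The NTR of tfap2a was above that of 117 of the 126 genes in polyA+ RNA and of 51 in ribo-depleted RNA, although 296 reads of it were present at 1 hpf. For gata3 these numbers were 111 and 47, for gata2a 95 and 46, for tfap2c 79 and 60, and for foxi1 30 and 11. That of dlx3b was above all 126 in polyA+ RNA and above 94 in ribo-depleted RNA, on 53 and 60 reads. For tp63 it was above 0 of the 126 in polyA+ RNA and above 67 in ribo-depleted RNA. Among the 8932 genes the NTR of the 7 was above that of 85.8% (tp63) or more in polyA+ RNA and above that of 91.9% (foxi1) or more in the ribo-depleted library.

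**Figure D3:**
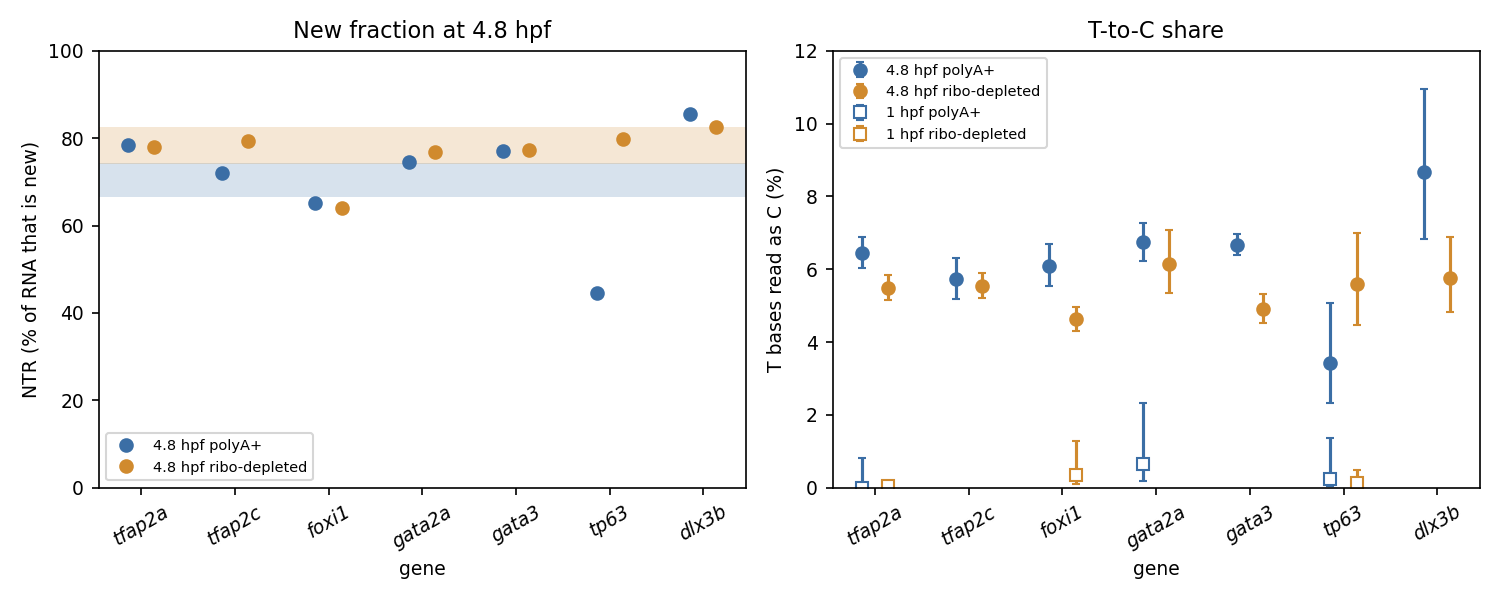
Left, NTR in percent of each gene at 4.8 hpf in polyA+ and ribo-depleted libraries, with shaded bands for the interquartile range of the 126 genes without reads at 1 hpf (66.6 to 74.4% in polyA+ and 74.1 to 82.7% in the ribo-depleted library). Right, percent of covered T bases read as C with 95% Wilson intervals, drawn where at least 300 T bases were covered. Except for tp63 in the polyA+ library (44.5%), the NTR values were between 63.9% and 85.5%.

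The genes differed in how much more of them the polyA+ library held. At 4.8 hpf the ratio of RPM, polyA+ over ribo-depleted, was 11.4 for gata2a, above that of 99.8% of the 8932 genes, and 8.58 for gata3, above that of 99.7%. The ratios of the others were 2.29 (tfap2a), 1.66 (tp63), 1.54 (dlx3b), 1.43 (foxi1) and 1.25 (tfap2c). Over the 8932 genes the median log2 ratio was 0.02 and the middle 80% lay between −0.72 and 0.91. The ratio was read for gata4, gata5 and gata6, but not for gata1b and gata2b, which had at most 5 reads in a 4.8 hpf library. It was 2.64 for gata5 and 2.16 for gata6, above that of 95.5% and 93.0% of the genes. It was 0.748 for gata4, which rests on 3 reads against 7. By contrast the NTR was close in both library types, at 74.55% and 76.75% for gata2a and at 77.15% and 77.24% for gata3. The median over the 126 genes without reads at 1 hpf was 70.6% in polyA+ and 79.5% in ribo-depleted RNA. Among these 126, gata2a and gata3 were above 95 and 111 in polyA+ RNA, but above 46 and 47 in ribo-depleted RNA. At 1 hpf the ratio of tfap2a was 0.202, above that of 2.89% of 8344 genes, and that of gata2a was 52.2, which rests on 21 reads against 1. The part that platform, kit or RNA class has in these ratios was not tested.

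**Figure D4:**
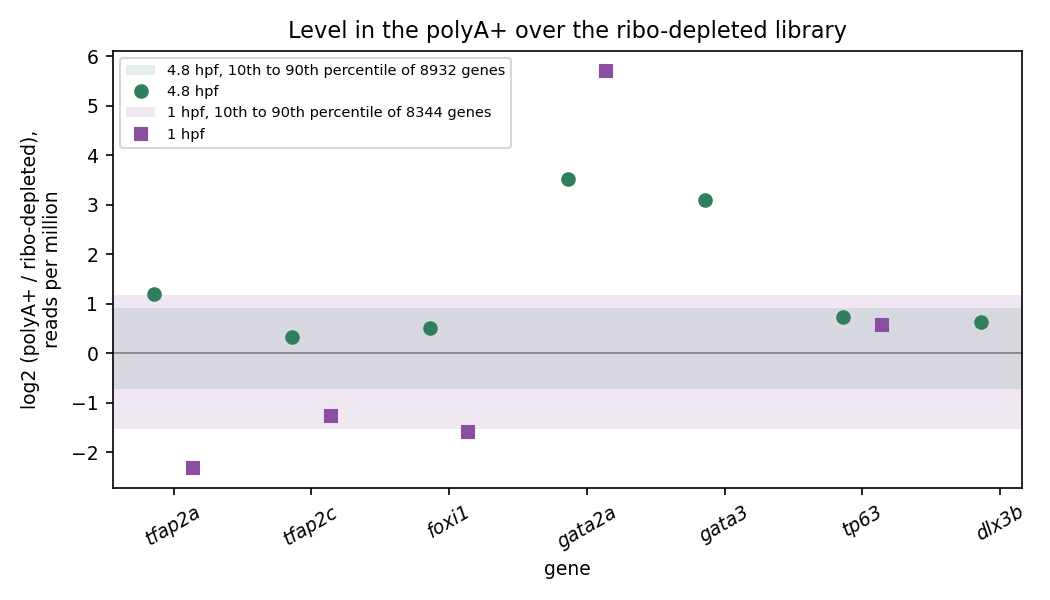
Log2 ratio of RPM, polyA+ over ribo-depleted, for each gene at 4.8 hpf and at 1 hpf where both libraries had reads, with shaded bands from the 10th to the 90th percentile of the genes that reached 100 reads in each library of the stage. At 4.8 hpf gata2a (3.51) and gata3 (3.10) were above the middle 80% of genes (−0.72 to 0.91), as was tfap2a (1.19), and at 1 hpf tfap2a was at −2.31.

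Levels of different genes were compared as RPM per kilobase of listed gene length (RPKM). In the 4.8 hpf polyA+ library the order was gata3 (65.2), foxi1 (26.2), tfap2a (25.3), gata2a (22.0), tfap2c (6.41), dlx3b (3.26) and tp63 (1.25). The intervals of foxi1 and tfap2a overlapped, as did those of tfap2a and gata2a, and the other neighbours in the order did not. In the ribo-depleted library the order was foxi1 (18.3), tfap2a (11.1), gata3 (7.59), tfap2c (5.11), dlx3b (2.12), gata2a (1.92) and tp63 (0.755). There only the intervals of dlx3b and gata2a overlapped. The GATA genes thus stood lower in the order of the ribo-depleted library, gata3 in the third place and gata2a in the sixth, while tp63 was last in both. By RPM, without the length, 4 of the 7 genes kept their place in polyA+ RNA and 1 of the 7 in ribo-depleted RNA.

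**Figure D5:**
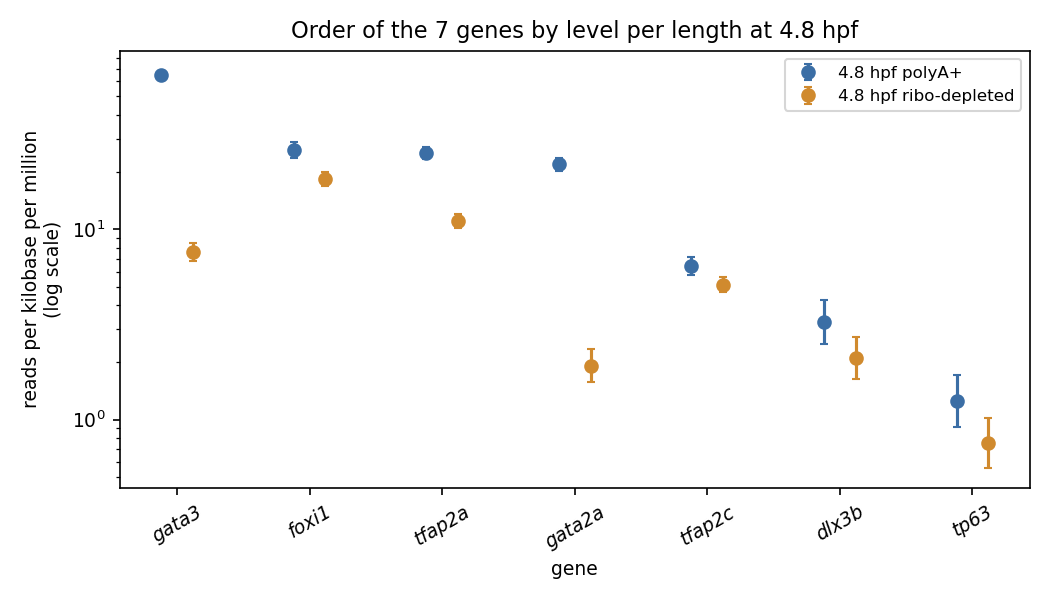
RPKM of the 7 genes at 4.8 hpf on a log axis with 95% Wilson intervals of the read count, in polyA+ and the ribo-depleted library. The order was led by gata3 (65.2) in polyA+ RNA and by foxi1 (18.3) in the ribo-depleted library, and tp63 was lowest in both (1.25 and 0.755).

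Few relatives of the 7 genes were abundant. Of 21 paralogues, 18 were in the table, 3 reached 100 reads in each 4.8 hpf library and 7 had enough reads to be tested, of which 4 were called higher (gata6, gata5, tfap2e and tp73) and 1 lower, with a median log2 change of 2.30 (18.3% higher, 14.5% lower and a median of 0.10 over all genes). The endoderm and heart factors gata6 (log2 change 7.46 ± 0.67), also one of the yolk syncytial layer markers, and gata5 (9.40 ± 0.73) were abundant, with 288 and 113 RPM in the 4.8 hpf polyA+ library and 133 and 42.8 in the ribo-depleted library. In contrast tfap2e had at most 20 reads and tp73 at most 17 in a 4.8 hpf library. The gene called lower, dlx6a, was named after its value was seen (log2 change −2.74 ± 0.53), with 1.76 and 2.75 RPM at 4.8 hpf, against 9.71 and 26.7 at 1 hpf.

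Genes of the BMP pathway, antagonists among them, and the ventral factors that act with it were called higher in 14 of 24 tested. They were called lower in 2. Over all genes tested, 18.3% were called higher and 14.5% lower. The median log2 change was 4.50, against 0.10 over all genes. The 18 with at least 100 reads had a median NTR of 60.7% in polyA+ and 72.2% in ribo-depleted RNA. The most new RNA came from id1, a BMP target, from the ventral homeobox repressors vox and ved, and from bambia, a BMP pseudoreceptor. The log2 changes of id1, ved and bambia were 7.67 ± 0.71, 8.51 ± 0.70 and 5.21 ± 0.58, and vox had 242 and 182 RPM at 4.8 hpf, against 1 and 0 reads at 1 hpf. The 2 called lower, named after their values were seen, were the BMP ligand gdf6a (−1.89 ± 0.51) and the homeobox gene msx1b (−1.23 ± 0.50), and msx1b still had an NTR of 60.0% and 69.7% at 4.8 hpf. The list also holds the BMP antagonists chrd, nog1 and fsta, likewise named after their values were seen. Of these, chrd (167 and 120 RPM at 4.8 hpf) and nog1 were called higher, and fsta had too few reads for the test. The calls are thus not of ventral or BMP-promoting genes only.

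Of the epidermal and surface ectoderm genes, 16 of 21 tested were called higher and 1 lower, against 18.3% and 14.5% of all genes tested. The 19 with at least 100 reads had a median NTR of 73.7% in polyA+ and 79.6% in ribo-depleted RNA. The median log2 change was 7.27, or 7.22 with genes at 0 reads at 1 hpf at their bound, against 0.10 over all genes. The keratin genes krt8, krt18a.1, krt4 and krt92 had the most new RNA. The level of krt8 was 847 and 541 RPM at 4.8 hpf, against 1.21 and 4.51 at 1 hpf, and krt92 had 214 and 139 at 4.8 hpf, against 0 in both at 1 hpf. All 10 enveloping layer markers are in this list, and they made 9 of its 16 higher calls and its 1 lower call.

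Factors of the neural plate, the alternative ectodermal fate, were also called higher, in 15 of 20 tested genes, and lower in 1 (otx1, −1.32 ± 0.49, named after its value was seen), against 18.3% and 14.5% of all genes tested. The median NTR of the 16 that reached 100 reads at 4.8 hpf was 68.9% in polyA+ and 73.0% in ribo-depleted RNA. The median log2 change was 6.999, or 5.03 with genes at 0 reads at 1 hpf at their bound, against 0.10 over all genes. Of the genes called, the zinc finger gene zic2b and the Sox genes sox11a, sox19a and sox3 had the most new RNA. More was measured for sox11b, which was not called (837 and 933 RPM at 4.8 hpf with an NTR of 58.2% and 51.4%, against 236 and 616 RPM at 1 hpf). The log2 changes of zic2b, sox11a and sox3 were 8.41 ± 0.70, 6.75 ± 0.62 and 8.61 ± 0.69. No test of a difference between the lists was made.

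Beside each of the 7 genes, the 2 genes with the most similar pattern were taken as those at the smallest Euclidean distance over 8 values, the log2 of new and of stored RPM (plus 1) in the 4 libraries, among 8903 named genes. The closest pairs were those of tfap2c with rbm47 (0.342), an RNA-binding protein gene, and znf999 (0.428). For tfap2a they were hsd3b2 (1.15) and nocta (1.28), and for gata2a her8a (1.47) and fetub (1.85). For foxi1 they had only provisional names, CR356223.1 among them (distances 0.710 and 0.714), and they were for gata3 BX530721.1 (1.30) and net1 (1.43), and for dlx3b si.ch211.98n17.5 (1.54) and tfec (1.64). For tp63 they were znf1022 and ampd2b (2.19 each), at the greatest distance of the 7 genes. Of the 14 nearest genes, 7 were shared with those found with 0.1 in place of 1 added to the values.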

How the data were processed

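Bulk SLAM-Seq libraries of embryos at 4.8 hpf and 1 hpf were used. Per the methods of the study and the submitters' processing notes, cutadapt trimmed the reads, STAR placed them on GRCz11, and GRAND-SLAM gave the estimates. The deposited values are estimated counts of reads per gene, not normalized, the NTR as a fraction from 0 to 1, the number of T-to-C conversions, the coverage as the number of covered T bases, and the gene length. Deposited values were tied to a stage and, by instrument, to a library type. They were not tied to a replicate number, and none was used. A gene without an estimate in a library was taken as 0 reads. A name stands in the table for 20200 of 25769 genes, and a list of identifiers named another 4488.

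New reads are the count multiplied by the NTR and stored reads the remainder, both given as RPM of the library total. Counts were rounded and tested by edgeR (version 4.0.16, R 4.3.3) with its quasi-likelihood test (TMM, filterByExpr, library type as covariate, Benjamini-Hochberg adjustment over all genes tested, threshold 0.05). The test was checked on simulated counts with less spread than these data and with the same change in both library types. That check does not show how the test does where the pairs disagree. DESeq2 1.42.0, other scalings, no filter, no library type term and leaving out each library were alternatives. The test of stored reads does not carry the error of the NTR. Other steps used Python 3.11.15.

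The 7 genes and the gene lists were chosen with earlier results of these data known. List genes were named when they passed the threshold and reached 100 reads in each 4.8 hpf library, at most 4 a list by new reads, with the exceptions stated beside them. Another exception is 1 gene called lower, which is in the counts and sums but is not reported here by name. P-values measure only the spread between these libraries, and that of edgeR's main fits is pooled over genes and is not the spread of the single gene. The single-cell data of the study were not analysed here.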

Additional observations from a re-analysis of the deposited data

Results flagged for a closer look

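The tfap2a reads counted as stored, those not counted as new, differed between the stages in opposite directions in the 2 library types. The log2 ratio of stored RPM, 4.8 hpf over 1 hpf, was 2.55 in the polyA+ pair and −0.92 in the ribo-depleted pair. With 1 library per stage and type, the difference between the library types was not tested.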

How the results depend on the processing

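Of the 7 genes, 6 were called higher in total reads, and the same 6 were with DESeq2's size factors, library totals, no filter and DESeq2. Without the library type term 4 were called, and leaving out a library, which also drops that term, gave 3 to 6. The number of genes called in total reads was 5358. It was 1974 without the library type term (1602 higher, 372 lower), with 81.2% of the calls higher against 55.7% with it, and 975 to 1709 with a library left out. The number of genes called in stored reads was 3662, and 0 to 816 with a library left out, over other sets of genes tested. Without the 1 hpf polyA+ or the 1 hpf ribo-depleted library edgeR called 0, with 3217 and 3578 genes at an unadjusted p under 0.05. DESeq2 called 2602. The log2 change in stored tp63, −0.69, was −1.94 without the 4.8 hpf polyA+ library, 0.33 without the 4.8 hpf ribo-depleted library and 0.07 without the 1 hpf polyA+ library.

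The percent of new reads at 4.8 hpf was 75.1% in the polyA+ library, 71.1% as the unweighted mean NTR, 70.1% with the NTR at 1 hpf subtracted, and 73.5 to 76.2% with a gene left out. In the ribo-depleted library it was 74.8%, and 72.7% by gene length, 76.8% as the mean, 77.95% as the median, 72.7% with the NTR at 1 hpf subtracted and 73.5 to 78.3% with a gene left out. At 1 hpf it was 1.29% in the polyA+ library, 9.28% as the mean, 0% as the median and 0 to 1.93% with a gene left out. In the ribo-depleted library it was 0.156%, 1.86% as the mean, 0% as the median, 0% over genes with at least 100 reads and 0 to 0.899% with a gene left out. The 1 hpf percents rest on foxi1 in the polyA+ library, with 2 reads, and tfap2c in the ribo-depleted library, with 6 reads. The shift of the 4.8 hpf percents on subtracting the NTR at 1 hpf rests on the same genes. Their NTR at 1 hpf, 46.4% for foxi1 and 9.29% for tfap2c, came from 1 conversion each. The cause of the other differences was not tested. The test pairs libraries by their type. Apart from this pairing by library type, no paired analysis was possible because the deposited values carry no replicate number to pair by.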

Other observations

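Genes of the preplacodal region and the neural crest, which form from the border of the non-neural ectoderm, were mostly low at 4.8 hpf. Of the 15 such genes in the table beside tfap2a and foxi1, 8 were tested, 4 were called higher by edgeR's quasi-likelihood test and 2 lower, against 18.3% and 14.5% of all genes tested, with a median log2 change of 1.09, against 0.10 over all genes. Of these, foxd3 and zic2a are also in the list of neural plate factors. The genes called higher were snai2, zic2a, foxd3 and snai1b. Of the neural crest genes in the list, sox9b was not called (log2 change −0.45 ± 0.47). Another, sox10, had 4 and 2 reads at 4.8 hpf and was not tested (both named after their values were seen). The level of foxd3 was 29.5 and 19.8 RPM in the polyA+ and ribo-depleted libraries at 4.8 hpf, against 0 reads in both at 1 hpf, and its NTR was 68.7% and 75.6%. The level of snai2 was 87.4 and 60.3 RPM at 4.8 hpf, against 14.4 and 11.7 at 1 hpf (log2 change 2.63 ± 0.47). The genes called lower, named after their values were seen, were msx1b (−1.23) and pax3a (−1.80 ± 0.75), which had 6 and 4 reads at 4.8 hpf, against 8 and 45 reads at 1 hpf.

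The NTR of foxi1 in the 1 hpf polyA+ library was 46.4%, on 2 reads and 1 conversion among 37 T bases, and in the 1 hpf ribo-depleted library it was 0 although 2 of 559 T bases were read as C.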
